A study of Mus musculus with 4 samples.

Results

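The mRNAs of both cytoplasmic actins and of 4 proteins that handle actin monomers were followed across the cell states of mouse plaques and ligated carotid arteries. The 6 genes were Actb (beta-actin), Actg1 (gamma-actin), Tmsb4x and Tmsb10 (thymosins beta-4 and beta-10), Cfl1 (non-muscle cofilin) and Pfn1 (profilin). They were taken by name, and all 6 were listed in each of the 4 libraries, among 31765 genes in the plaque libraries and 26391 and 27696 genes in the ligation libraries. They were chosen by their measured levels across cell states and their ratios between genotypes in these same libraries, so that the levels and ratios given here are descriptions of these libraries, and no test was made.

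Actin exists in cells as monomers and as filaments. Profilin loads monomers with ATP and delivers them to growing filament ends, beta-thymosins hold monomers in a reserve that does not polymerise, and cofilin severs old filaments and returns monomers to the pool. Smooth muscle cells of the artery wall also make a muscle actin, Acta2, which forms the contractile filaments and is widely used as a marker of the contractile state. Monomeric actin binds the MRTF coactivators of the transcription factor SRF and keeps them from their targets, many of which are genes of actins and of actin-binding proteins.

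The coding sequences show how close the members of each pair are. Beta- and gamma-actin were identical at 88.7% of 1128 coding bases and differed at 128. The first 60 coding bases are shown because they hold the amino-terminal codons by which both proteins are told apart, and capitals mark the 9 bases that differ. In GRCm38, Actb lies at chr5:142903115-142906754 and Actg1 at chr11:120345690-120348542, both on the minus strand, and the bases shown are exonic, at chr5:142905627-142905686 and chr11:120348032-120348091.
Actb: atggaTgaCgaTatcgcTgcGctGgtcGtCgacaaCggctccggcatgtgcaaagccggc
Actg1: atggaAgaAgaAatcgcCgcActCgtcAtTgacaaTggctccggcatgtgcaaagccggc

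The beta-thymosins are among the smallest proteins of the cell, and their whole coding sequences, of 135 bases or 44 codons and a stop, are shown since their levels were highest in different cell states. They differed at 40 bases, in capitals, and were identical at 70.4%. Tmsb4x lies on the X chromosome at chrX:167207093-167209315 and Tmsb10 at chr6:72957347-72958748, both on the minus strand.
Tmsb4x: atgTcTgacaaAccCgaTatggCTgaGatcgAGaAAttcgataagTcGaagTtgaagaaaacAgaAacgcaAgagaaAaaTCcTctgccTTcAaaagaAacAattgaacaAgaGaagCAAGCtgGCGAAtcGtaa
Tmsb10: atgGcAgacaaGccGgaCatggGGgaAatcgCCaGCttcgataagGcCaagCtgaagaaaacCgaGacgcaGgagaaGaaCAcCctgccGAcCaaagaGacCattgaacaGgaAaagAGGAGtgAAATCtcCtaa

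Cfl1 lies at chr19:5490455-5495201 on the plus strand and Pfn1 at chr11:70651850-70654644 on the minus strand. Promoter windows of 250 bases before to 50 bases after the start, from RefSeq on GRCm38.p6, were at hand for 5 of the 6 genes, with 7 windows in all and none for Actb. The CArG box, the DNA sequence that SRF binds, was searched as CC, then 6 bases that are each A or T, then GG, a pattern that reads as itself on the other strand. It was in 1.63% of all 32851 windows, and among the members only in that of Actg1, 90 bases before the start. The window of the muscle actin Acta2 held no box either. Boxes outside the windows or with other bases were not searched, so that a window without a box does not show that SRF does not bind the gene. The stretch around the Actg1 box, chr11:120348546-120348625 on the minus strand, is shown with the box in capitals.
Actg1 promoter: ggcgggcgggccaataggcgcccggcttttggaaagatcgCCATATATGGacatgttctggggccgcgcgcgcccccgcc

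The data came from droplet single-cell RNA sequencing of 4 libraries, 1 per genotype in each experiment, and the number of mice behind each library was not given in the sources used here. Plaques of the aorta and carotid arteries came from Myh11-CreERt2/Confetti/ApoE-/- mice (ApoE-/-) and from Myh11-CreERt2/Confetti/Sm22a-Trf2T188A/ApoE-/- mice (Trf2T188A/ApoE-/-). Both groups thus lack ApoE and carry a tamoxifen-inducible Cre and a lineage reporter, both were given tamoxifen and a high-fat diet, and the deposited plaque cells are those of reporter-expressing clusters. Carotid arteries were taken 28 days after ligation from SM22a-TRF2T188A mice and wild-type littermate controls on C57Bl/6. The Sm22a promoter that drives the mutant telomere protein is active in smooth muscle. The comparison asks how cells with a mutant that brings on premature senescence differ from control cells.

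The plaque libraries held 1502 (ApoE-/-) and 929 (Trf2T188A/ApoE-/-) cells with medians of 22766 and 24377 UMIs (unique molecular identifiers, each standing for 1 captured mRNA molecule) per cell. The ligation libraries held 4967 and 5392 cells with medians of 8631 and 11153 UMIs, so that the Trf2T188A cells were the deeper ones. Levels are UMIs per 10000 UMIs of the cell, averaged over cells, and since each UMI counts a molecule, different genes were set side by side without division by length. Processing differed between the experiments, so that plaque and ligation levels are not compared. Ratios are log2 of Trf2T188A over control after adding 1 to both means, and intervals are 95% intervals that cover counting error only, not variation between mice. All 6 genes have near-identical copies or pseudogenes in the mouse genome, and how reads were shared with these is uncertain.

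Cells were clustered without the actin genes and their binders. Of the 14 plaque clusters, 11 had at least 20 cells in each library. Clusters 0 and 10 were contractile smooth muscle-like, cluster 3 fibromyocyte-like (a de-differentiated state rich in matrix genes) and cluster 7 chondrocyte-like (cartilage genes). Cluster 11, adventitial fibroblast-like, held 21 and 1 cells and is counted in the values over all plaque cells. The others stayed unnamed and are given by number with leading genes. In ligated arteries, 2 large clusters stayed unnamed, cluster 2 was fibromyocyte-like, cluster 3 interferon response-like, cluster 4 endothelial-like and cluster 5 macrophage or other myeloid-like. Ligation smooth muscle cells are all cells outside clusters 4 and 5, 4886 control and 5270 Trf2T188A cells. Myh11, the smooth muscle myosin heavy chain, averaged 28.5 and 23.1 per 10000 in the plaque libraries and 32.6 and 29.1 in the ligation smooth muscle cells. It was near 0 in the plaque chondrocyte-like cells, at 0.255 and 0.165. The sum of 10 myeloid markers was 0.0918 and 0.215 in plaque cells and 0.0732 and 0.0766 in ligation smooth muscle cells, with no marker at 0 throughout. The 2 ligation libraries shared 10 cell barcodes, and the plaque libraries shared none.

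In plaques, the members did not follow the contractile programme as 1 block. From the contractile to the chondrocyte-like cells, Acta2 and Tmsb4x were lower by more than an order of magnitude, Actb by less, and Actg1 by little, whereas Tmsb10 was highest in the fibromyocyte-like cells. Clusters are ordered below by the mean of both libraries, and 2 neighbours are called separate where the values of their libraries did not overlap.

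Actb, the main cytoplasmic actin, averaged 59.3 and 76.8 (ApoE-/- and Trf2T188A/ApoE-/-) in contractile-like cluster 10 and 58.4 and 68.1 in contractile-like cluster 0. It was at 34.7 and 30.7 in the fibromyocyte-like and 10.5 and 13.2 in the chondrocyte-like cells, a 5.73-fold range. The 6 highest clusters overlapped their neighbours, cluster 9 (led by Adamtsl1 and Rgs5) lay below them at 37.4 and 45.4, and clusters 3 and 4 (C3, Cp and Lcn2) overlapped each other. Cluster 5 (Ifrd1, Nav2 and Dmd), at 19.5 and 18.7, and the chondrocyte-like cells were each separate. Cluster 5 is also the shallowest of these clusters, with medians of 9882 and 7768 UMIs per cell, and the part of depth in its low values was not tested.

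Actg1, the sister gene, spanned only 2.27-fold. It was highest in the fibromyocyte-like cells, at 15.3 and 12.7, was at 12.2 and 14.6 in contractile-like cluster 0, and still at 8.59 and 11.3 in the chondrocyte-like cells. In the order of levels, neighbours overlapped except clusters 2 and 4, and cluster 5, which lay apart at the bottom at 5.97 and 6.34. The number of Actb UMIs per Actg1 UMI was therefore 4.79 and 4.67 in contractile-like cluster 0, 2.27 and 2.42 in the fibromyocyte-like cells and 1.22 and 1.17 in the chondrocyte-like cells.

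Tmsb4x was the most abundant member and ranked 7th of all genes in plaque cells. It averaged 148 and 147 in contractile-like cluster 0, 41.1 and 25.9 in the fibromyocyte-like and 3.95 and 3.86 in the chondrocyte-like cells, a 37.8-fold range. This range was wider than that of any other member and narrower than the 79.7-fold range of Acta2. Cluster 0, cluster 6 (Igfbp2, Ptprz1 and Sost; 128.0 and 129.9) and cluster 2 (Sparcl1, Tppp3 and Atf3; 108.6 and 111.7) were each separate, and so were the chondrocyte-like cells.

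Tmsb10 had its high values elsewhere. It was highest in the fibromyocyte-like cells, at 5.91 and 5.48, next in cluster 4 at 3.50 and 3.14, and at 1.69 and 2.04 in contractile-like cluster 0. It was at 1.31 and 1.33 in the chondrocyte-like cells and lowest in cluster 5 at 0.632 and 0.491, so that both thymosins had their lowest levels in clusters 5 and 7. The first 2 clusters were separate from each other and from the rest. For each Tmsb10 UMI there were 87.6 and 72.0 Tmsb4x UMIs in contractile-like cluster 0, 6.94 and 4.74 in the fibromyocyte-like and 3.02 and 2.90 in the chondrocyte-like cells.

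Cfl1 and Pfn1 lay between these patterns. Cfl1 was at 3.78 and 4.35 in contractile-like cluster 0, 3.66 and 3.18 in the fibromyocyte-like and 1.32 and 1.65 in the chondrocyte-like cells, and spanned 2.77-fold. Pfn1 was highest in contractile-like cluster 0, at 6.94 and 8.10, and at 4.41 and 3.58 in the fibromyocyte-like cells, at 1.66 and 2.06 in the chondrocyte-like cells and lowest in cluster 5 at 1.47 and 1.03, a 6.02-fold range. Profilin UMIs per cytoplasmic actin UMI were 0.0982 and 0.0978 in contractile-like cluster 0, 0.0883 and 0.0825 in the fibromyocyte-like and 0.0870 and 0.0840 in the chondrocyte-like cells, but 0.0578 and 0.0409 in cluster 5. Thymosin UMIs per cytoplasmic actin UMI went from 2.11 and 1.80 through 0.941 and 0.724 to 0.275 and 0.211 over clusters 0, 3 and 7.

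**Figure D1:**
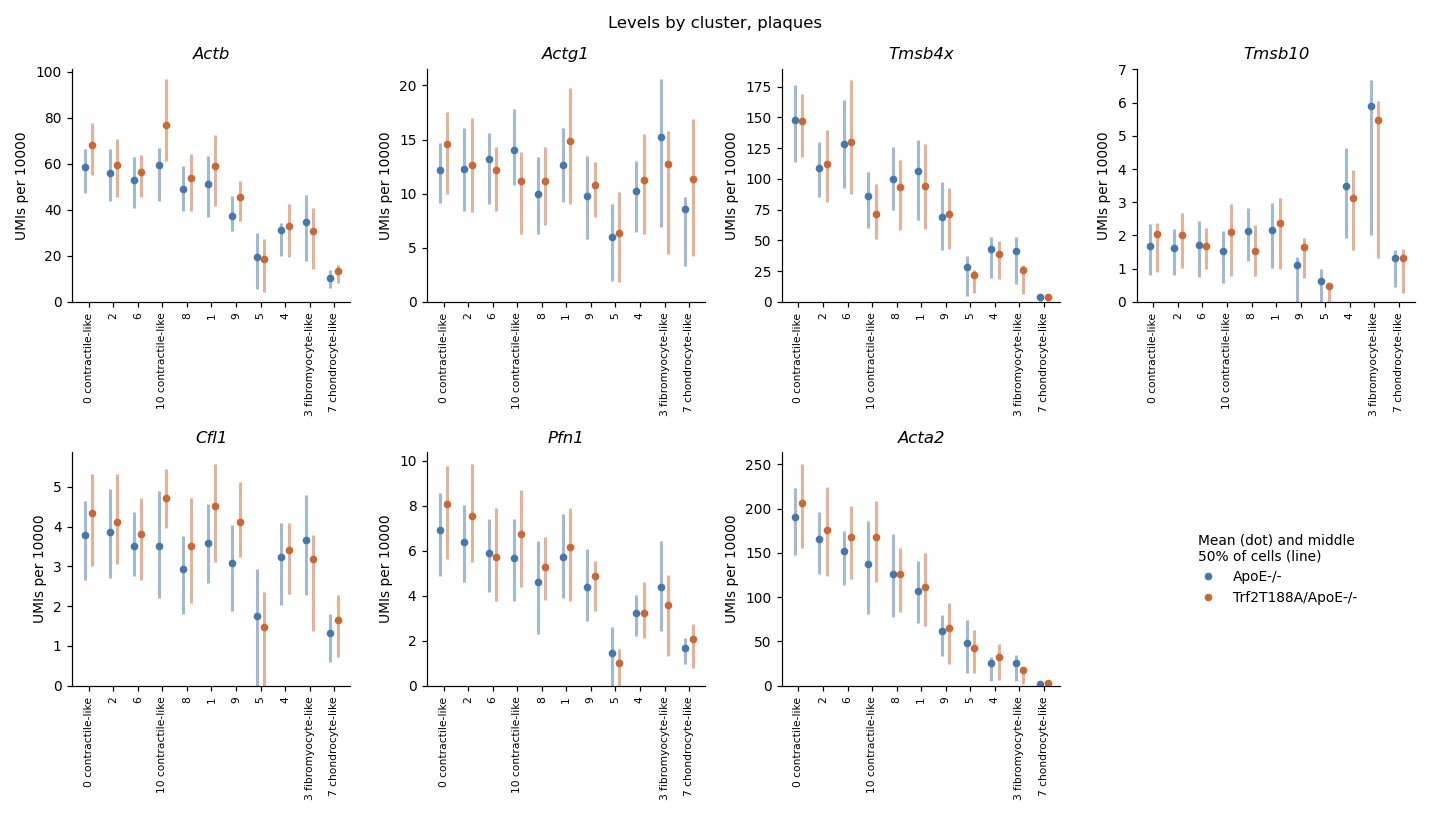
Level of each gene (UMIs per 10000, linear axis from 0) in the 11 plaque clusters with at least 20 cells per library, ordered by Acta2, with the mean (dot) and the middle 50% of cells (line) of the ApoE-/- and Trf2T188A/ApoE-/- library. Tmsb4x went down with Acta2, from 148 and 147 to 3.95 and 3.86, while Actg1 stayed within a 2.27-fold range and Tmsb10 peaked in the fibromyocyte-like cells.

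As a result the actin mRNA of plaque cells changed in kind from state to state. Cytoplasmic actins made up 26.7% and 28.2% of all actin UMIs in contractile-like cluster 0, 64.7% and 70.3% in the fibromyocyte-like and 88.5% and 90.3% in the chondrocyte-like cells. Total actin was at 264 and 293 per 10000 in the first, 77.1 and 61.7 in the second and 21.6 and 27.2 in the third. The summed cytoplasmic actins were lower too, from 70.6 and 82.7 through 49.9 and 43.4 to 19.1 and 24.6, so that their larger share stood beside a lower level. Actg1 alone was 4.62% and 4.98% of actin UMIs in contractile-like cluster 0 and 39.8% and 41.6% in the chondrocyte-like cells. Of the other muscle actins, Actg2 (enteric smooth muscle) stayed at or below 2.78% in every one of the 11 clusters, and Acta1 and Actc1 (skeletal and cardiac) gave 1 and 27 UMIs in all ApoE-/- cells and 5 and 10 in all Trf2T188A/ApoE-/- cells.

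**Figure D2:**
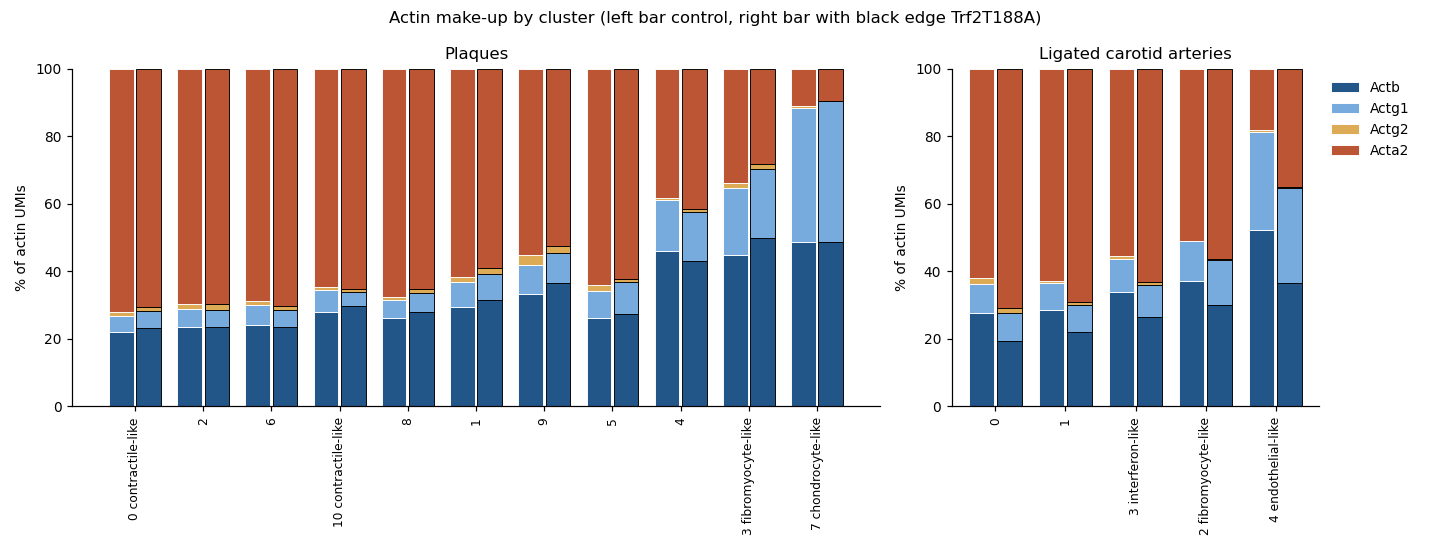
Share of Actb, Actg1, Actg2 and Acta2 in the actin UMIs (percent, axis from 0 to 100) of each cluster, with the control library as the left bar and the Trf2T188A library as the black-edged right bar. Blue shades, the cytoplasmic actins, grow from 26.7% in plaque cluster 0 to 90.3% in the chondrocyte-like cells, and in ligated arteries the Actb share is smaller in the right bar of every pair.

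Ligated arteries were clustered at a lower resolution (0.2) and had no chondrocyte-like cluster, so that their ranges are given on their own. Between the highest cluster, cluster 0 (led by Igfbp2, Eln and Filip1l), and the fibromyocyte-like cells, Acta2 went from 208 and 227 (control and Trf2T188A) to 93.9 and 88.0, Tmsb4x from 137 and 142 to 81.3 and 87.0, and Actb from 92.8 and 62.5 to 68.5 and 46.8. Actg1 was at 28.6 and 26.8 in cluster 0 and within 18.9 to 23.3 in the other 4 clusters with at least 20 cells per library. Cfl1 spanned 1.14-fold over these clusters, and neighbours overlapped except the fibromyocyte-like cells (5.06 and 5.20) and cluster 0 (4.75 and 4.93).

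Among the 5 clusters with at least 20 cells per library, Tmsb10 was highest in the endothelial-like cells, with 10.5 in both libraries. It was at 2.95 and 3.63 in the fibromyocyte-like cells and 1.84 and 2.09 in cluster 1 (Sparcl1, Tcap and Rbp4). The endothelial-like cells had the lowest Actb of these clusters, at 38.1 and 24.3, and cytoplasmic actins were 81.3% and 64.8% of their actin UMIs. Their Acta2, at 13.3 and 23.3, lay above the middle 50% of the cells in both libraries, so that few cells carried most of it. The myeloid-like cells, 19 in the control and 57 in the Trf2T188A library, had the highest levels of the Trf2T188A library in 5 of the 6 genes, all but Tmsb10, with Tmsb4x at 138 and 180, Cfl1 at 8.04 and 9.57 and Pfn1 at 11.5 and 13.8. In that library they had 25.1 Tmsb4x UMIs per Tmsb10 UMI, and the fibromyocyte-like cells 23.9. Tmsb10 was thus also higher in the myeloid-like than in the fibromyocyte-like cells.

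**Figure D3:**
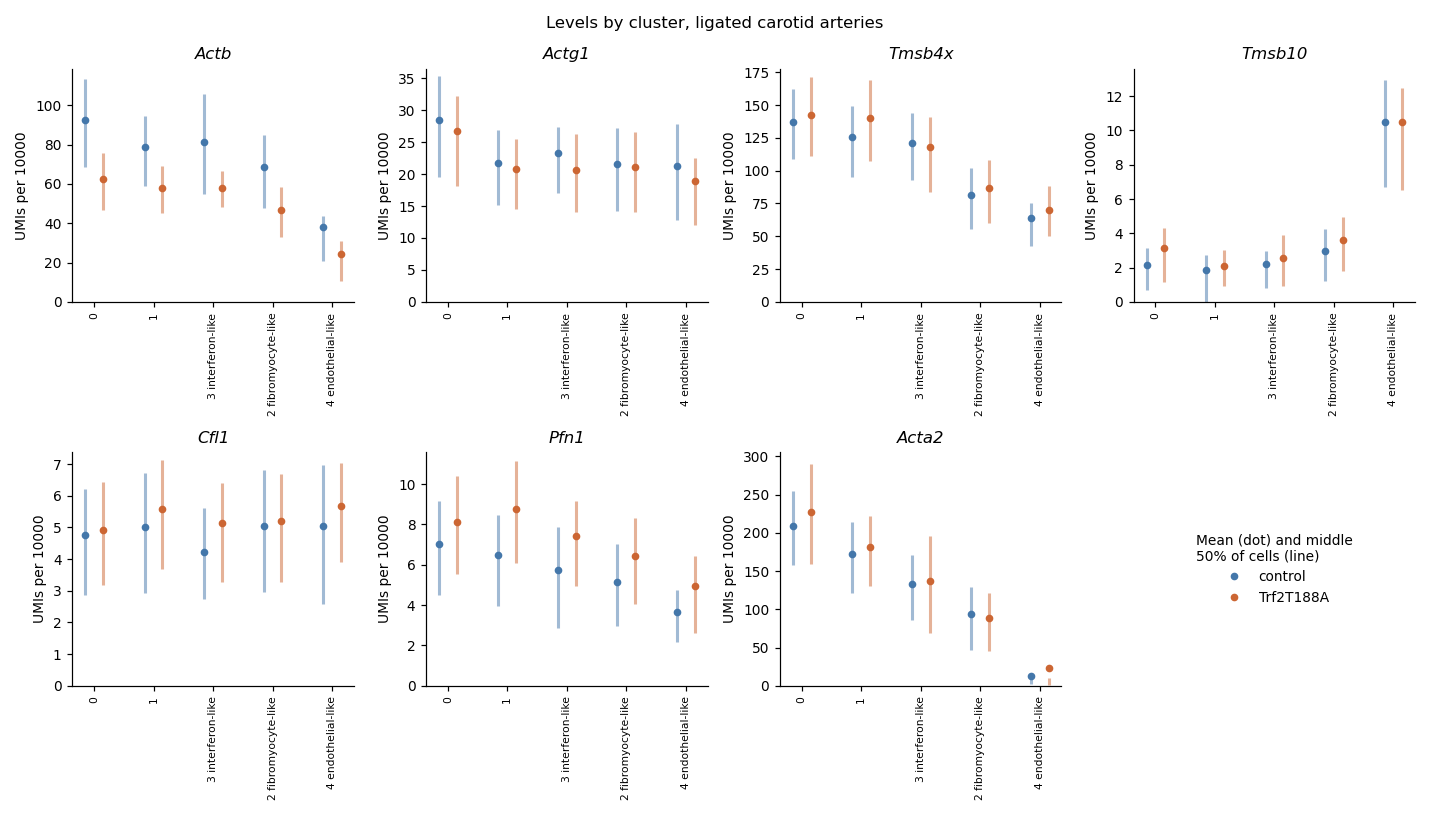
Level of each gene (UMIs per 10000, linear axis from 0) in the 5 ligation clusters with at least 20 cells per library, ordered by Acta2, with the mean (dot) and the middle 50% of cells (line) of the control and Trf2T188A library. Actb is lower in the Trf2T188A library of every cluster, from 92.8 to 62.5 in cluster 0 for example, while Pfn1 is higher in each.

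Of the 6 genes, Actb differed most between the ligation libraries. Ligation smooth muscle cells averaged 81.9 Actb UMIs per 10000 in the control (81.6 to 82.2) and 57.2 in the Trf2T188A library (57.0 to 57.4). With 1 added to both means, this was a log2 ratio of -0.51 (-0.52 to -0.50), or 29.8% less. The middle 50% of cells ran from 58.5 to 102 in the control and from 42.7 to 69.4 in the Trf2T188A library, so that cells overlapped. Counted without scaling, there were 78.1 and 71.6 Actb UMIs per cell, although the Trf2T188A cells held more UMIs in all. Among the 284 genes at 5 or more UMIs per 10000, Actb had the lowest ratio.

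Actb was lower in the Trf2T188A library of every cluster. The log2 ratio was -0.56 in cluster 0, -0.44 in cluster 1, -0.54 in the fibromyocyte-like and -0.49 in the interferon response-like cells, where 0.786%, 0.157%, 0.529% and 3.27% of detected genes were lower by 0.25 or more, the study's fold limit on the log2 scale. It was as low in cells that are not smooth muscle, at -0.63 (-0.71 to -0.55) in the endothelial-like cells (4.32% of genes lower), and the myeloid-like cells averaged 114 in the control and 73.5 in the Trf2T188A library. Whether animal, dissection, library or genotype sets a difference that all cell types of a library share cannot be told apart with 1 library per genotype.

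Actg1 was close, at 24.6 and 23.0 with a log2 ratio of -0.09, and below 0 in each of 5 clusters, from -0.16 to -0.03. The number of Actb UMIs per Actg1 UMI was thus 3.34 in the control and 2.49 in the Trf2T188A library. Acta2 was at 166 and 177 (0.10). Actb made up 29.7% of actin UMIs in the control and 22.0% in the Trf2T188A library, all cytoplasmic actin 38.6% and 30.8%, and Acta2 60.2% and 68.1%.

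Pfn1 differed the other way, with 6.32 (6.25 to 6.40) in the control and 8.02 (7.94 to 8.09) in the Trf2T188A library, a log2 ratio of 0.30 (0.28 to 0.32). It was higher in all 5 clusters, from 0.19 in cluster 0 to 0.38 in cluster 1, and past 0.25 in the 4 outside cluster 0, where 0.807%, 1.01%, 2.55% and 3.58% of genes in clusters 1 to 4 were. It was 12th highest among the 284 abundant genes. In clusters 1 to 4 the 95% quantile of such genes was 0.29, 0.32, 0.40 and 0.60, and Pfn1 was above it only in cluster 1. The endothelial-like cells shared the difference (0.35), so that library and genotype cannot be told apart for Pfn1 either. Tmsb4x was at 119 and 129 (0.12) and Cfl1 at 4.90 and 5.26 (0.09). Tmsb10 was at 2.27 and 2.79 (0.21), with its largest ratio of 0.38 in cluster 0, where 1.5% of genes were higher by the limit, and none to speak of in the endothelial-like cells (-0.01, -0.14 to 0.13). Per cytoplasmic actin UMI, thymosin UMIs were 1.14 in the control and 1.65 in the Trf2T188A library, and profilin UMIs 0.0594 and 0.10. The summed thymosins were at 121 and 132 per 10000 and the cytoplasmic actins at 106 and 80.2, so that these quotients also hold the lower Actb. In the endothelial-like cells thymosin UMIs per cytoplasmic actin UMI were 1.26 and 1.87.

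Past the limit of 0.25, 1 of the 6 genes (Pfn1) was thus higher and 1 (Actb) lower. Of 8232 genes detected (with a UMI in 10% or more of cells in 1 or both libraries), 0.802% were higher and 0.255% lower by as much, and of the 284 abundant genes 6.34% and 2.11%. The median ratio of the 6 genes was 0.11, against -0.00 for all detected and 0.01 for the abundant genes. A sum over 16 genes that dissociation of tissue induces was 196 in the control and 180 in the Trf2T188A smooth muscle cells. In the endothelial-like cells that sum was 181 and 247 and in the interferon response-like cells 185 and 210, and its part in the ratios was not tested.

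**Figure D4:**
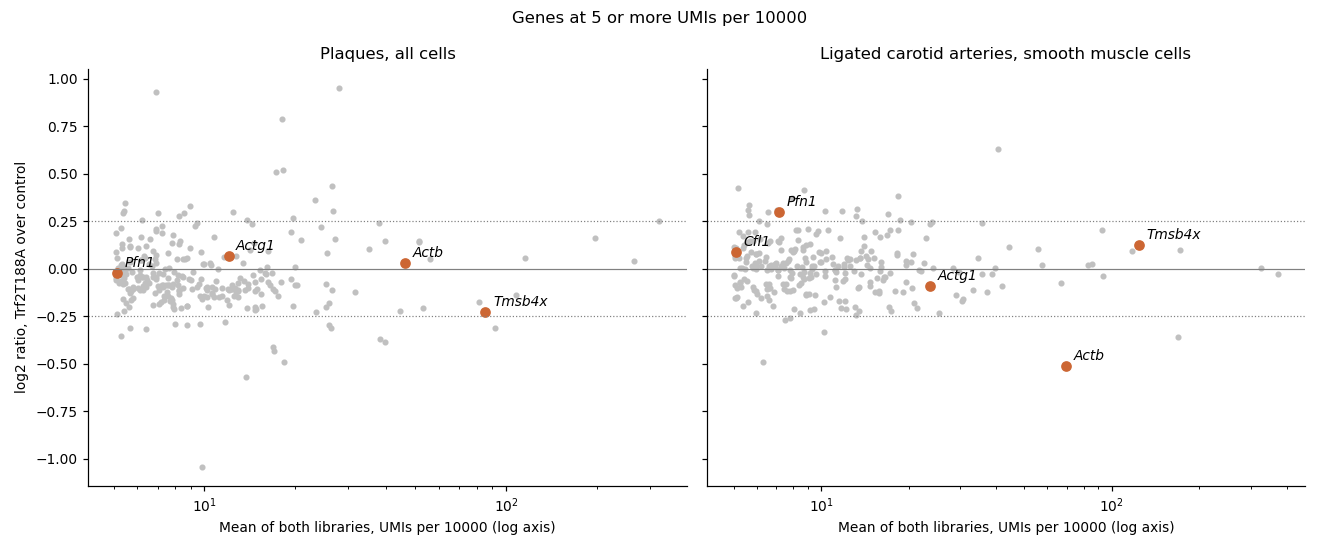
Log2 ratio of Trf2T188A over control against the mean level of both libraries (UMIs per 10000, log axis) for genes at 5 or more UMIs per 10000 in plaques (285 genes) and ligation smooth muscle cells (284 genes), with dotted lines at a log2 ratio of 0.25 either way. In ligated arteries Actb, at -0.51, is the lowest point, and in plaques Tmsb4x, at -0.23, is the lowest of the members shown.

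In plaques none of the 6 genes passed that limit over all cells, against 0.57% of 10526 detected genes higher and 0.247% lower, and 7.02% and 5.96% of 285 abundant genes. Actb averaged 45.7 and 46.7 (log2 ratio 0.03), Actg1 11.7 and 12.3 (0.07), Tmsb10 2.32 and 2.41 (0.04), Cfl1 3.36 and 3.53 (0.06) and Pfn1 5.20 and 5.10 (-0.02). The intervals of Tmsb10 (-0.00 to 0.08) and Pfn1 (-0.06 to 0.01) took in 0. The direction of Actb turned, to -0.10, when log2 values were averaged cell by cell.

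Tmsb4x differed most, with 92.1 (91.8 to 92.5) in the ApoE-/- and 78.6 (78.2 to 79.0) in the Trf2T188A/ApoE-/- cells, a log2 ratio of -0.23 (-0.24 to -0.22), 19th lowest of the 285 abundant genes. The middle 50% of cells ran from 38.6 to 133 in the former and from 19.2 to 124 in the latter, so that the libraries differed more among cells low in Tmsb4x. Of the clusters low in Tmsb4x, cluster 5 was a larger part of the Trf2T188A/ApoE-/- library, with 5.19% (exact binomial interval 4.13 to 6.44) and 10.5% (8.65 to 12.7) of cells. This cluster was shallow, with medians of 9882 and 7768 UMIs per cell, and kept Myh11 at 34.3 and 26.1. The intervals overlapped for fibromyocyte-like cells, 10.9% (9.39 to 12.6) and 14.2% (12 to 16.6), and for chondrocyte-like cells, 5.39% (4.3 to 6.66) and 6.78% (5.25 to 8.59). Cluster 2, high in Tmsb4x, was 16.4% (14.5 to 18.3) and 8.18% (6.50 to 10.1). These intervals cover the counting of cells in 1 library each. With both libraries weighted to the same cluster make-up the ratio was -0.07. Acta2, at 113 and 102, had a ratio of -0.14. Without clusters 11, 12 and 13 the ratio of Tmsb4x was -0.27, past the limit.

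Within clusters the plaque members moved in different ways. In the fibromyocyte-like cells all 6 had a ratio below 0, with a median of -0.20, where the 243 abundant genes had a median of -0.13. Tmsb4x was at 41.1 and 25.9 (-0.64, -0.68 to -0.61), and 1.74% of the 11370 genes detected there were lower by the limit. Actg1 was at -0.25 (short of the limit at -0.247), Pfn1 at -0.24, Actb at -0.17, Cfl1 at -0.16, Tmsb10 at -0.09, and Acta2 at -0.56. The marker sum of the contractile state in these cells was 11.3 and 8.29.

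In contractile-like cluster 0, 5 of the 6 genes were higher in the Trf2T188A/ApoE-/- cells, all short of the limit. Actb was at 58.4 and 68.1 (0.22) and Actg1 at 12.2 and 14.6 (0.24). The ratio was 0.20 for Pfn1, 0.18 for Tmsb10 and 0.16 for Cfl1, and 0.12 for Acta2. Of the genes detected there, 0.353% passed the limit upwards and 0.177% downwards. Tmsb4x did not differ beyond counting error (-0.00, -0.02 to 0.01). Over the 11 clusters, Actb was higher in 9, from -0.17 to 0.37, Cfl1 in 9, Actg1 and Pfn1 in 8, Tmsb10 in 6 and Tmsb4x in 3. Actb passed the limit upwards in clusters 7, 9 and 10, as did 3.03%, 3.11% and 5.45% of detected genes there. Among genes at 5 or more UMIs per 10000, the 5% and 95% quantiles were -0.59 and 0.84 in cluster 7. They were -0.525 and 0.50 in cluster 9 and -0.60 and 0.435 in cluster 10, and held the Actb ratios between them. Tmsb4x passed the limit downwards in clusters 3, 5 and 10, as did 1.74%, 5.12% and 5.01% of detected genes. The 5% quantile of abundant genes was -0.43, -0.48 and -0.60 there, and Tmsb4x lay below it only in cluster 3. In the chondrocyte-like cells Actb (0.31) and Actg1 (0.36) were both past the limit, and both ratios had the opposite sign at a coarser clustering. The 15 ratios past the limit in plaque clusters were each recomputed under 3 other clusterings. Of these 45 values, 42 kept their sign and 28 stayed past the limit. The same count was not made over all genes, so that it has no background to be read against.

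**Figure D5:**
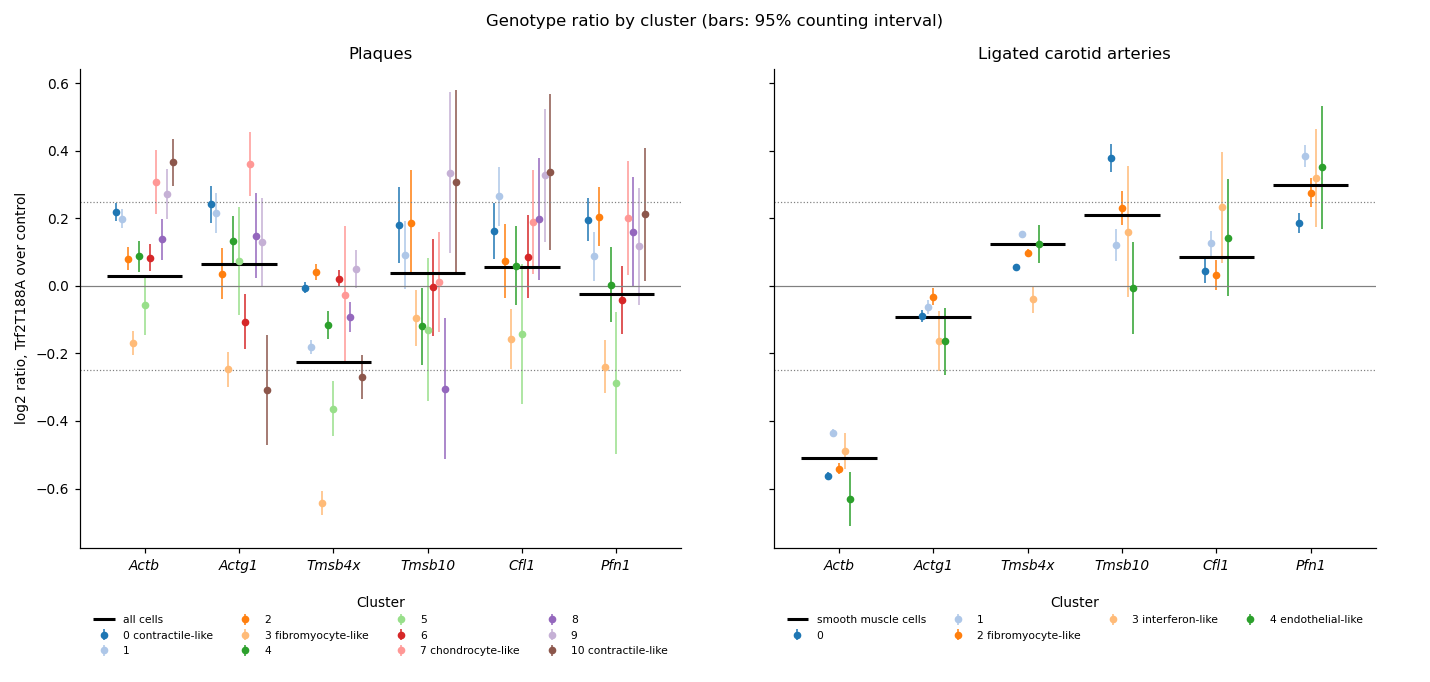
Log2 ratio of Trf2T188A over control for each member in each cluster (coloured points, bars are 95% counting intervals) and over all plaque cells or all ligation smooth muscle cells (black lines), with dotted lines at 0.25 either way. In ligated arteries the 5 clusters agree in sign for Actb, Actg1, Cfl1 and Pfn1, whereas in plaques the clusters lie on both sides of 0 for every member.

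Few other genes of the actin system passed the limit. Over all detected genes, 0.57% passed it upwards and 0.247% downwards in plaques, and 0.802% and 0.255% in ligation smooth muscle cells. Since 1 was added to both means, a gene at a low level passes only with a large change. The capping gene Eps8, for example, was at 0.151 and 0.220 in plaques (0.08). A low gene within the limit is thus not shown to be unchanged. Of the other genes that bind monomers, 10 were detected in plaques and 9 in ligated arteries, and none passed the limit. The lowest in plaques was Dstn (destrin, a relative of cofilin), at 27.1 and 23.4 (-0.20), and the highest in ligated arteries Cfl2 (muscle cofilin), at 1.70 and 1.91 (0.11). Dstn outnumbered Cfl1 in plaque cells of both libraries.

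All 9 listed genes for subunits of the Arp2/3 complex, which starts branched filaments, stayed within the limit in both experiments, with a median ratio of 0.03 in each. Arpc1b was the highest both times, at 3.46 and 3.75 (0.09) in plaques and 4.78 and 5.26 (0.12) in ligated arteries. Of the formins and other nucleators, Lmod1 (leiomodin, a nucleator of smooth muscle) was lower in plaques, at 9.76 and 7.74 (-0.30), and was at 13.1 and 11.2 (-0.21) in ligated arteries. None of 12 detected capping genes in plaques and of 9 in ligated arteries passed the limit.

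Among 20 detected bundling, crosslinking and side-binding genes, Tpm2 (a muscle tropomyosin) passed it, at 29.3 and 23.4 (-0.31) in plaques, next to Cald1 (caldesmon) at 25.4 and 21.6 (-0.23). At the upper end stood Tagln2, at 5.39 and 5.95 (0.12), and Tpm4, at 2.41 and 2.66 (0.10), both broadly expressed forms. None of these 20 genes passed it in ligated arteries, where Tpm1 was at 30.5 and 27.6 (-0.14) and Actn1 (alpha-actinin) at 6.75 and 7.53 (0.14).

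Of 14 genes of SRF, its coactivators and their focal adhesion targets, 1 was higher in each experiment. This was Ccn2 in plaques, at 23.7 and 29.5 (0.30), and Ccn1 in ligated arteries, at 15.3 and 18.8 (0.29), both secreted matricellular proteins. Ccn2 was at 38.8 and 35.6 (-0.12) in ligated arteries, where Srf-partner Myocd (myocardin) was at 1.38 and 1.17 (-0.14). These 14 genes had a median ratio of -0.01 in ligated arteries, with 5 of them above 0. The ratio of Actb, the lowest of the abundant genes there, was -0.51. The part of SRF in it was not tested.

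Of the 16 dissociation genes in plaques, 3 were higher, among them Hspa1b at 2.53 and 3.56 (0.37) and Hspa1a at 4.73 and 6.07 (0.30), both heat shock proteins, with a summed level of 131 and 146. In ligated arteries Hspa1a was higher, at 4.06 and 5.31 (0.32), and Fosb, an immediate early gene, lower, at 11.5 and 8.93 (-0.33). The part of these genes in the members' ratios was not tested.

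The members' profiles over clusters gave a description of which genes varied like them. Pearson's r was taken over 22 points in plaques and 10 in ligated arteries, each the mean log2 level of 1 cluster in 1 library, and points of a library share its depth and those of a cluster share its state. In plaques, Tmsb4x ran with Acta2 (r = 0.95), Actb with Pfn1 (0.96) and Cfl1 (0.94), and Tmsb10 with neither Acta2 (-0.07) nor Tmsb4x (0.19). Of 10364 genes compared, the 3 nearest to Tmsb4x were Kif1c (0.98), Gkap1 (0.97) and Zyx (0.97), the focal adhesion protein zyxin. The nearest to Actb were Spr (0.98), Sh3bgrl (0.98) and Tle5 (0.97), to Actg1 Eloc (0.96), Cox6b1 (0.95) and Eif5a (0.95), and to Tmsb10 Aida (0.94), Ppp1r14b (0.93) and Nadk (0.92). Cfl1 had S100a11 (0.96), Mdh2 (0.96) and Ywhab (0.96), and Pfn1 had Ndufb7 (0.98), Cct7 (0.98) and Atp5pb (0.98).

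In ligated arteries, Tmsb10 ran against Acta2 (-0.97) and Actb (-0.92), with the endothelial-like points at its upper end, and its nearest gene was Stmn1 (0.99), which encodes the microtubule regulator stathmin. Tmsb4x ran with Acta2 there too (0.89). Actb with Pfn1 gave 0.55 and Actb with Cfl1 -0.68, unlike in plaques. The nearest to Actb was Braf (0.95), to Actg1 Col14a1 (0.96), to Tmsb4x Sh3bgr (0.99), to Cfl1 Cdk2ap1 (0.96) and to Pfn1 Atpif1 (0.99).

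Cells were also compared singly within each library. After thinning each cell to 8000 UMIs in plaques (1410 and 807 cells) and 5000 in ligated arteries (4571 and 5128 smooth muscle cells), the Spearman correlation of Tmsb4x with Acta2 was 0.75 and 0.84 in plaques and 0.59 and 0.60 in ligated arteries. Actb with Acta2 gave 0.68 and 0.78 in plaques and 0.51 and 0.46 in ligated arteries. Within single plaque clusters of at least 50 such cells, Tmsb4x with Acta2 ranged from -0.00 in the chondrocyte-like cells to 0.60 in cluster 8 in the ApoE-/- library, with 0.28 in contractile-like cluster 0, so that the values over all cells hold the differences between clusters as well. Both actins were less tied to each other, with 0.32 and 0.39 in plaques and 0.31 and 0.26 in ligated arteries. Tmsb10 gave values between -0.16 and -0.01 with Acta2 in all 4 libraries, which at its low counts is no relation to read. Cfl1, also low in counts, gave values between 0.01 and 0.11 with each of the other members in the ligation libraries.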

How the data were processed

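Single cells of 2 plaque and 2 ligation libraries, made with the 10x Chromium 3' kit, were analysed. According to the submitters' processing notes the authors used GRCm38 with Cell Ranger 6.1.2, Seurat 3.2.1 and R 3.6.2 for ligation and Cell Ranger 7.0.0, Seurat 4.3.0 and R 4.2.2 for plaques. The deposited signal is the UMIs of a gene divided by the total of its cell and multiplied by 10000, on a linear scale. Of all values, 100% came within 0.01 of whole UMIs, and these whole UMIs gave depth and counting intervals. Every deposited cell was kept, and since Scrublet marked at most 3 cells of a library, the 5% with the highest doublet scores were left out as an alternative. A gene not listed for a ligation library was taken as 0 there.

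Clusters were formed with Seurat 5.3.0 in R 4.3.3 (2000 variable genes, 18 components and resolution 0.9 for plaques, 17 and 0.2 for ligation) after 106 actin-related genes had been left out, which differs from the study. A name needed a mean log2 ratio of 0.5 or more over the markers of a state, 3 markers up and 1 among the 10 leading genes. These limits were set once the clusters were known, and rebuilt clusters need not hold the study's cells. The members and lists were chosen with earlier results of these data known.

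With 1 library per genotype no test was made, since cells are not replicates. The study's fold limit of 0.25 and its detection limit of 10% of cells were used to count genes. Intervals on ratios of means came from Poisson variances of the UMIs by the delta method, and the step was tested on simulated data. Beside the members, the text names the 2 highest and lowest ratios of each list, in part, and the 3 genes nearest to each member in plaques. Sums and ratios were computed with numpy 2.4.6, pandas 2.3.3, scipy 1.17.1 and scanpy 1.11.5 under Python 3.11.15. Coding sequences and gene positions came from GENCODE (GRCm38) and promoter windows from RefSeq. Alternatives changed the cells, depth, pseudocount, averaging, scaling, cluster make-up and clustering. One of the gene lists is not reported here.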

Additional observations from a re-analysis of the deposited data

Results flagged for a closer look

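For 3 genes the ratio of Trf2T188A over control had opposite signs in plaques and in ligated arteries, with counting intervals that left out 0 on both sides. Actb had a log2 ratio of 0.029 in plaque cells and -0.51 in ligation smooth muscle cells, Actg1 of 0.065 and -0.091, and Tmsb4x of -0.23 and 0.12. Each value compares 1 library with 1 other, so that the difference between the experiments was not tested, and the experiments also differed in artery, diet, ApoE genotype and processing.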

How the results depend on the processing

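No paired analysis was possible because each experiment had 1 library per genotype, and for the same reason no replicate could be left out. In ligation smooth muscle cells, the ratio of Actb stayed between -0.52 and -0.49 and that of Pfn1 between 0.28 and 0.35 over 10 alternatives. The former was -0.52 in thinned cells, -0.49 as a mean of log2 values per cell and -0.50 from summed UMIs. The median of the 6 genes was 0.14 from log2 values per cell and 0.087 with both libraries weighted to the same cluster make-up. Tmsb10 also passed the limit with a pseudocount of 0.1 and with weighted clusters.

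In plaques the ratio of Actb was 0.051 without cells under 2000 detected genes, -0.10 from log2 values per cell, 0.062 from summed UMIs, 0.016 with a total free of contractile, member and mitochondrial genes and 0.14 with weighted clusters. The settings that leave out clusters were chosen after seeing the data. Actb was at 0.0057 without clusters 11, 12 and 13 and 0.075 without clusters 5 and 13. The median of the 6 genes was -0.067 from log2 values per cell, 0.099 with weighted clusters and 0.084 without clusters 5 and 13. The number of members past the limit was 1, Tmsb4x, from log2 values per cell (-0.43) and without clusters 11, 12 and 13 (-0.27). The ratio of Pfn1 kept its sign in 7 of 11 alternatives (-0.13 to 0.10). That of Tmsb4x kept its sign in all 11 alternatives, from -0.43 to -0.07. The cause of these shifts was not tested.

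At 0.5 times the clustering resolution, the ratios of Actb and Actg1 in the cluster nearest to the chondrocyte-like cells were -0.057 and -0.10, and that of Tmsb10 in the cluster nearest to cluster 8 was 0.10. Those clusters overlapped the first ones only in part. The median range of the 6 genes over plaque clusters was 4.81-fold at 0.5 times, 6.11-fold at 1.5 times and 6.06-fold with actin genes kept, against 5.87-fold, and over ligation clusters 1.91-fold, 1.99-fold and 1.92-fold, against 1.93-fold. In thinned cells Actb made up 28.2% of actin UMIs in Trf2T188A/ApoE-/- plaque cells and 21.9% in Trf2T188A ligation cells. Depth limits the low genes Tmsb10 and Cfl1 most.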
